A study of Mus musculus with 9 samples.

Results

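Cell cycle and DNA replication genes were followed in mouse Hepa 1 WT cells, a hepatoma line that grows in culture. The set holds 50 genes chosen by symbol for their known roles, of 28932 genes in the deposited transcript tables. The symbol of 49 stands on its own in the tables. Plk1 is listed only jointly with Dctn5, and the row of its RefSeq transcript was used. Each gene was read from the transcript row with the most counts on average. Total RNA was sequenced from 3 libraries of control cells, 3 of cells given FICZ at 10 nM and 3 of cells given tryptamine at 50 uM, each for 6 h. The labels call the controls untreated in one field and vehicle-treated in another, and give HC1C as the cell line. Nothing in them states that replicates were separate cultures, so p-values measure the spread between these libraries, which may be technical.

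FICZ is an indole compound formed from tryptophan by light, and tryptamine is the amine made from tryptophan. Both are known ligands of the aryl hydrocarbon receptor, AhR, a transcription factor that switches on Cyp1a1 and that has been tied to the control of G1 progression in hepatoma cells. In a dividing cell, D-type cyclins with Cdk4 or Cdk6 and cyclin E with Cdk2 phosphorylate the pocket proteins Rb1, Rbl1 and Rbl2. This frees E2F factors to switch on the genes of DNA replication and nucleotide supply. Genes of mitosis come on later, through cell cycle genes homology regions (CHR) and CCAAT boxes in their promoters. The comparisons below ask how far this programme differed between the groups after 6 h.

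Promoters of 4 genes are shown as background, and no result on RNA levels below depends on them. Tk1 and Tyms, which supply thymidine nucleotides, had the smallest p-values of the set for FICZ against control. Mcm2 and Ccnb1 are markers of cells in S phase and in G2 and mitosis. Each sequence is the 250 bases before the annotated start (RefSeq, GRCm38.p6), 5′ to 3′ on the gene's strand, which is minus for all 4. The Tk1 window is chr11:117826015-117826264, that of Tyms chr5:30073626-30073875, that of Mcm2 chr6:88898781-88899030 and that of Ccnb1 chr13:100786487-100786736. Capitals mark matches on either strand to GCGTG (the AhR core), TTTGAA (the CHR), CCAAT, and the E2F-type sites TTTCCCGC, TTTGGCGC and TTTCGCGC.
Tk1: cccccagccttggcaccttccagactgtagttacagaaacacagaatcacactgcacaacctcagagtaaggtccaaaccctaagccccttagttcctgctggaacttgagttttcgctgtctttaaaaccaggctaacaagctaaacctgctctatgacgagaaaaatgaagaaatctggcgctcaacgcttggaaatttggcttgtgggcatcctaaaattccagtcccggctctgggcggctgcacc
Tyms: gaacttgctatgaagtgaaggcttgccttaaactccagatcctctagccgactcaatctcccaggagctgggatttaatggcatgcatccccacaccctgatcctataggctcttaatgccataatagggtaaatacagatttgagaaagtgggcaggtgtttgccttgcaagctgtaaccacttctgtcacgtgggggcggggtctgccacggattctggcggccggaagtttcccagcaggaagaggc
Mcm2: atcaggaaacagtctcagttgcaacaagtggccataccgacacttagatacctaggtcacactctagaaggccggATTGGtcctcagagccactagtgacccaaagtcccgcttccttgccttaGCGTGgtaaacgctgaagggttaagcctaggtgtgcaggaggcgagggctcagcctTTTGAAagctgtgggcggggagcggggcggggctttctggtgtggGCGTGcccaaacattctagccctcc
Ccnb1: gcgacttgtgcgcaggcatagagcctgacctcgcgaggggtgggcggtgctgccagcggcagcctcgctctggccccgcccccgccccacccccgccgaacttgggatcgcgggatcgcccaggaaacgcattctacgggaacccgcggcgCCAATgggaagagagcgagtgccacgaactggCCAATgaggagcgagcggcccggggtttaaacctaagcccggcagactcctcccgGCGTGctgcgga
The Mcm2 window held 4 matches, starting 175 (CCAAT, as ATTGG), 126 (GCGTG), 70 (TTTGAA) and 25 bases (GCGTG) before the start. The Ccnb1 window held 3, a pair of CCAAT matches at 99 and 67 bases and GCGTG at 12. The windows of Tk1 and Tyms held 0 of these exact letter strings.

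Of the 50 genes, 41 matched the RefSeq promoter table, with 45 windows, against 32851 windows of all genes. An E2F-type string was found in 8 of the 45 (17.8%, against 1.53% of all windows), among them those of Cdc6, Mcm5, Mcm6, Mcm7, Cdk1 and Rbl1. CCAAT was found in 30 (66.7%, against 33.8%), TTTGAA in 10 (22.2%, against 15.99%) and GCGTG in 21 (46.7%, against 28.2%). No string contains another, though matches that stand close together may share bases. These are letter matches, which depend on base composition, and no binding was measured here.

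All 3 markers of dividing cells were present in every library. Mki67, a protein of the surface of mitotic chromosomes, was at 414, 413 and 201 CPM in controls 1 to 3, at 384, 379 and 455 CPM with FICZ, and at 442, 361 and 419.7 CPM with tryptamine. Ccnb1, the cyclin that drives entry into mitosis, was at 120.3, 111 and 117 CPM in control, 95.8, 116 and 110.2 CPM with FICZ, and 104, 108 and 126 CPM with tryptamine. Mcm2, a subunit of the replicative helicase, was at 256, 247 and 215 CPM in control, 242, 242 and 224 CPM with FICZ, and 252, 262 and 232 CPM with tryptamine. With all 9 libraries the groups overlapped for all 3 markers, and the one value far from the rest is Mki67 in control 3. Without control 3 the FICZ libraries of Mcm2 lay below both controls, as did those of 14.1% of all genes. The log2 difference of Mcm2 was then -0.09 ± 0.07 (SE, edgeR adjusted p = 0.712). CPM is the count scaled to a common library size after TMM scaling.

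Total counts over genes ran from 11594786 in control 3, the shallowest library, to 16715843 in FICZ 2. Markers of the hepatocyte were present in part: 7 of 14 had at least 10 counts on average, led by Trf, Alb and Afp, while Apoa1, Apob, Fga and Hnf4a had 0 counts. Summed, they gave 842 to 1067 CPM in control, the highest being control 3, 829 to 855 CPM with FICZ and 819.6 to 848 CPM with tryptamine. The blood and endothelial list was near 0, at 2.799 to 5.79 CPM over the 9 libraries, with Cd3e, Cdh5, Emr1 and Hbb-b1 at 0. Afp was at 151, 117 and 228 CPM in controls 1 to 3. Fibroblast genes summed to 1401 to 1774 CPM, led by Col1a1 and Dcn, which averaged 1087 and 387 CPM in control. Col1a2 had 11 counts in the 9 libraries together, Acta2 averaged 1.87 CPM in control and Lum was at 0. Bile duct genes summed to 1019 to 1550 CPM, led by Krt7 at 935, 913 and 1322 CPM in controls 1 to 3. Spp1 and Sox9 were present, Krt19 averaged 1.66 CPM in control and Epcam was at 0. The part of these markers in the cell cycle values was not tested. Cyp1a1, the positive control for AhR, rose with both compounds, from 59.2 ± 4.31 CPM in control to 1003 ± 45.2 CPM with FICZ and 703 ± 44.0 CPM with tryptamine (SD, n = 3), with edgeR adjusted p = 5.03e-09 and 1.66e-08.

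Control 3 stood apart from the other 8 libraries, and its cell cycle genes show along which axis. Across the 49 genes that passed the filter on low counts, its log2 level minus the mean of controls 1 and 2 went down with transcript length (Pearson r = -0.76, Spearman rho = -0.73, a description across genes, which are not independent). The same difference between control 2 and control 1 had r = 0.05. The median was 0.16 for the 10 genes of up to 2000 nt and 0.14 for the 12 of 2000 to 3000 nt, but -0.08 for the 14 of 3000 to 4000 nt and -0.51 for the 13 longer ones. Cenpf, with a transcript of 11130 nt, was at 76.5 CPM in control 3 against 171 and 166 CPM in the other controls, a log2 difference of -1.14. Mki67, at 10075 nt, differed by -1.04. Birc5, counted on 1 of its 8 rows, did not follow the length of that row, 3416 nt. The row's length need not be that of the RNA expressed. Birc5 stood at 234 CPM in control 3 and 149 and 147 CPM in controls 1 and 2. Its log2 difference of 0.66 was the highest of the set, against the median of -0.08 for genes of 3000 to 4000 nt. Over all 12372 genes tested the correlation with length was -0.55, so the trend is not particular to the cell cycle. For this reason the counts, the role medians and most single-gene differences below are given with and without control 3.

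**Figure D1:**
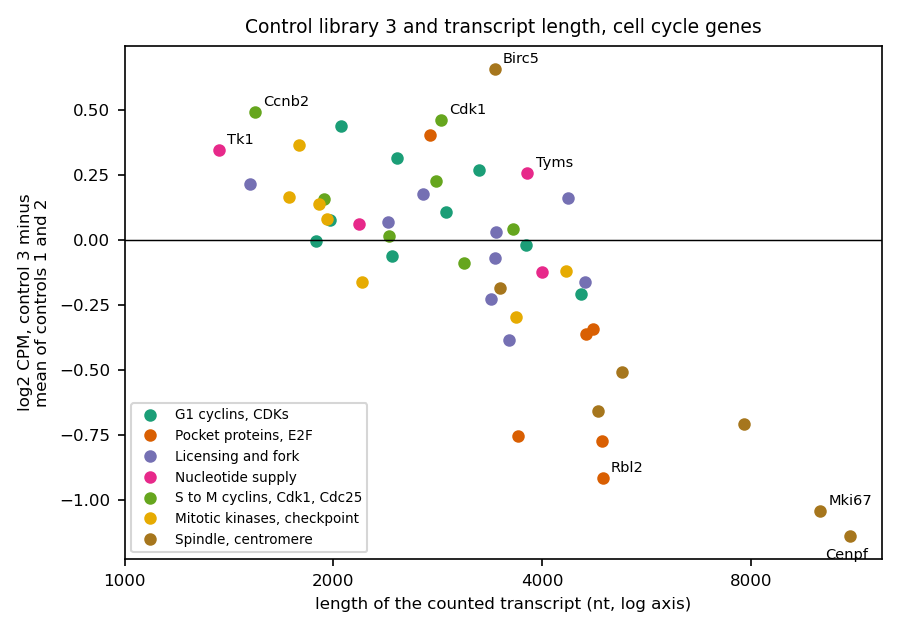
Log2 CPM in control 3 minus the mean of controls 1 and 2 (vertical axis) against the length of the counted transcript (horizontal log axis, nt), 1 point per gene, coloured by role. Genes over 4000 nt lie mostly below 0 (median -0.51), with Cenpf and Mki67 lowest, and genes up to 2000 nt mostly above (median 0.16).

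The levels covered a wide range in control cells. Compared per length, as mean CPM per kb of transcript, Ccnd1 (cyclin D1) was highest at 430.3 and its partner Cdk4 second at 268, followed by Top2a, the topoisomerase that untangles sister chromatids, at 202 and the helicase subunit Mcm3 at 139. At the other end were Rbl2 at 8.14, Rb1 at 3.49 and E2f2, an activating E2F, at 1.95. Ccnd2 (cyclin D2) had 1 count in the 9 libraries together and could not be tested. Among D-type cyclins, Ccnd1 thus stood above Ccnd3 by a per-length ratio of 7.76 to 9.66 over the libraries. Cdk4 stood above Cdk6 by 13.7 to 19.8, and the pocket protein Rbl1 (p107) above Rb1 by 5.53 to 8.48. The values 19.8 and 5.53 are control 3, and without it the ranges were 13.7 to 17.8 and 6.19 to 8.48. The means per kb above include control 3. The length used is that of the counted row, which need not be that of the RNA expressed. Tyms averaged 67.7 CPM in control on its row of 3808 nt and 60.2 CPM on a row of 1121 nt. Cdk6 was read from a row of 3243 nt with 2 exons. Ranks and ratios per length, here and for the MCM genes below, thus depend on the row chosen. Outside the 50, the INK4 inhibitors Cdkn2a and Cdkn2b and the inhibitor Cdkn1c had 0 counts in all 9 libraries, while Cdkn2c, another INK4 inhibitor, was at 66.6 ± 9.65 CPM in control (SD, n = 3).

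**Figure D2:**
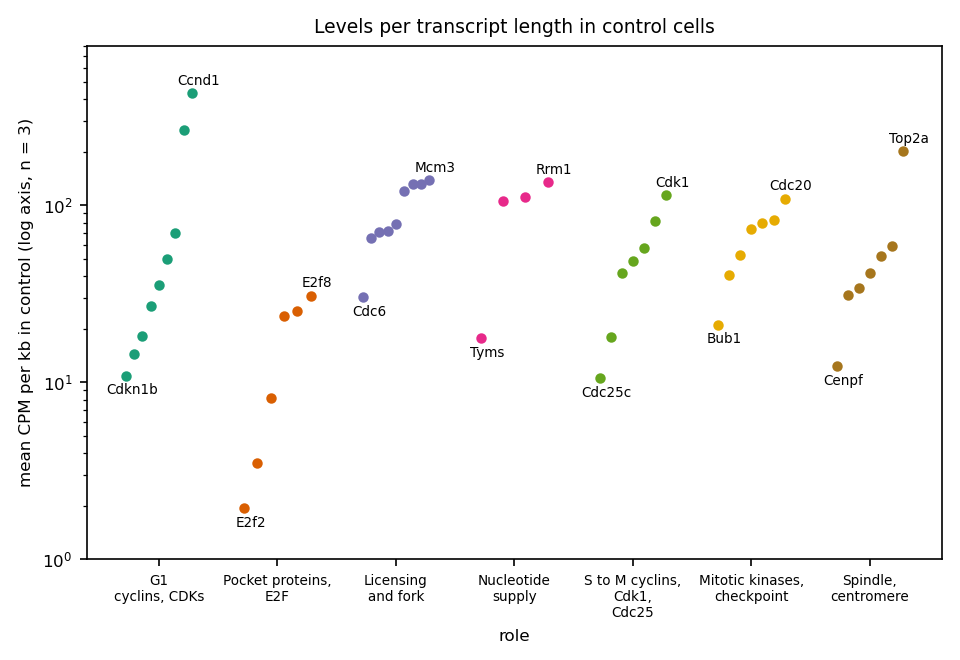
Mean CPM per kb of the counted transcript over the 3 control libraries (vertical log axis) for the 49 genes with enough counts, grouped by role. The lowest and highest gene of each role are named. Ccnd1 at 430.3 and E2f2 at 1.95 mark the ends of the range.

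The 6 subunits of the MCM helicase work as a ring with 1 copy of each. Per length they lay within a factor of 1.79 to 1.95 of each other in the 8 libraries other than control 3. In control 3 the factor was 2.38. Mcm3 was highest in all 9 libraries, and Mcm2 or Mcm4 lowest. Levels of the set were also steady between libraries: the SD over the 8 libraries without control 3 was 5.27% of the mean for the median gene, from 1.98% for Bub1b to 19.4% for E2f2. For all genes at least as abundant as the lowest of the set, the median was 7.61%, and over all genes 9.30%. The comparison was not otherwise matched for level, so it does not show that the set was steadier than genes of like level.

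**Figure D3:**
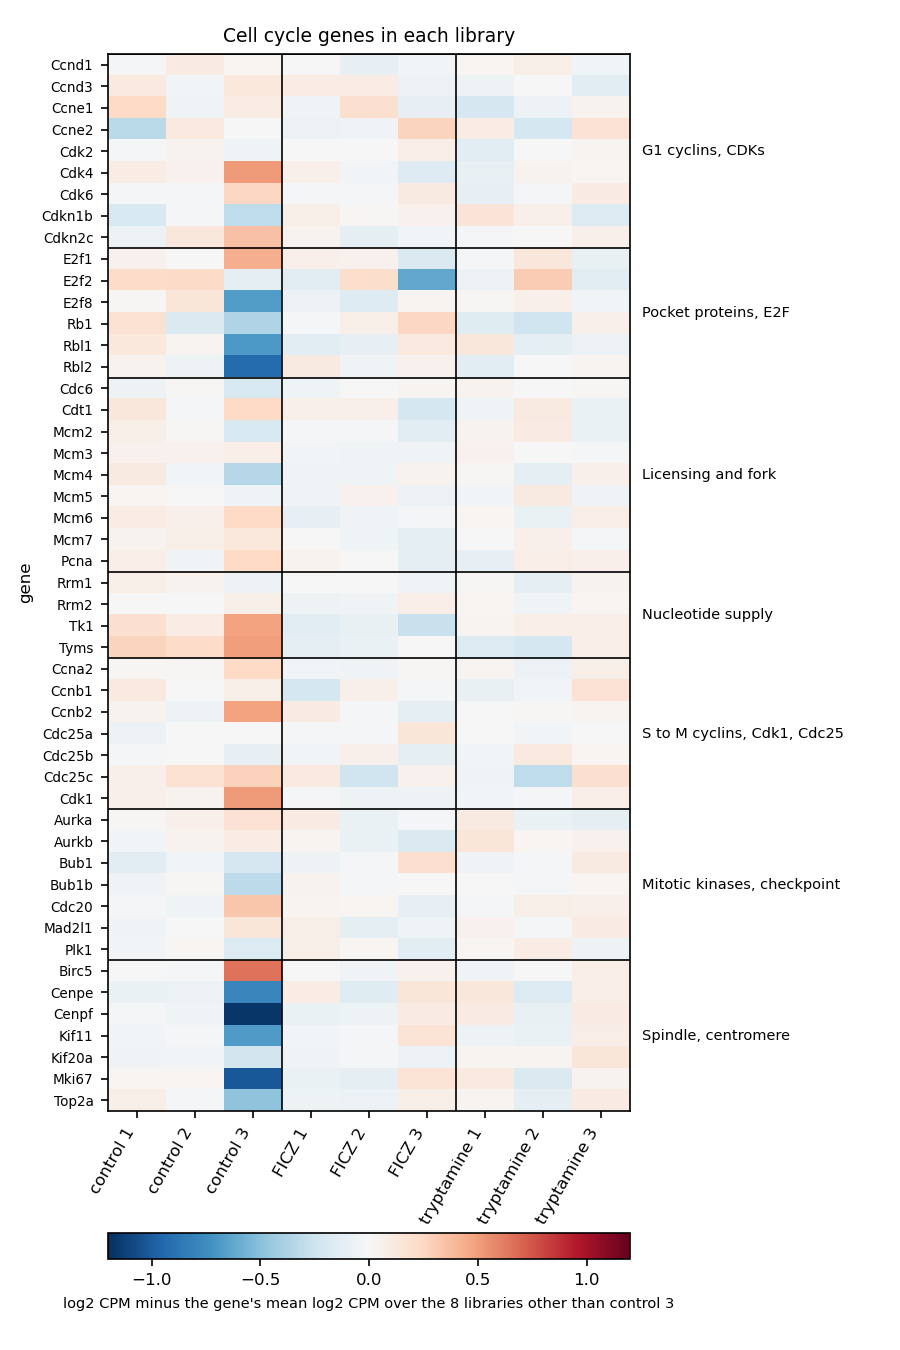
Log2 CPM of 49 cell cycle genes (rows, grouped by role) in the 9 libraries (columns), each minus the gene's mean log2 CPM over the 8 libraries other than control 3; red is higher and blue lower. The third column, control 3, holds the strongest colours, blue for the long spindle and pocket protein genes and red for Birc5, Cdk1, Cdk4 and Tk1.

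With FICZ, 0 of 49 genes passed edgeR's quasi-likelihood test at an adjusted p under 0.05, where 14 of the 12372 genes tested did (0.113%). Without control 3 the count was again 0, with 0.805% of all genes called. At an unadjusted p under 0.05, 2 of the 49 were lower, Tk1 and Tyms (4.6% of all genes were), and 0 higher (3.52%). Leaving out control 3 added Mcm6 to those lower (4.85%) and left 0 higher (5.12%). The median log2 difference of the 49 was -0.03 (-0.01 over all genes), with 20 above 0 and 29 below, or 16 and 33 without control 3 (median again -0.03). Each 95% interval is for 1 gene and reflects the spread between these libraries. For 49 of 49 genes it lay between -1 and 1 on the log2 scale (82.1% of all genes), and for 35 of 49 between -0.5 and 0.5 (41.3%). Without control 3, 47 of 49 lay within the narrower bounds (65.7%).

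With tryptamine the count was 0 of 49 as well, against 1 of 12372 genes (0.00808%), and 0 without control 3 (0.199%). One gene of the set, Tyms, was lower at an unadjusted p under 0.05 with or without control 3 (2.97% and 3.0% of all genes were lower), and 0 were higher (2.18% and 3.58%). The median log2 difference was -0.03 (0.00 over all genes), with 22 genes above 0 and 27 below, or 17 and 32 without control 3 (median -0.02). The interval lay inside 1 log2 unit for 49 of 49 genes (82.9% of all genes) and inside 0.5 for 37 (43.3%), or 47 without control 3 (67.4%). Both treatments are compared with the same controls, so their values are not independent of each other.

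Between FICZ and tryptamine directly, whose doses differ, 0 of 49 genes and 0 of 12372 passed (0.0%), and 0 of 49 passed without control 3 (0.136%). At an unadjusted p under 0.05, 0 of the 49 differed with all libraries (1.03% of all genes were lower and 0.703% higher). Without control 3, 1 was lower with FICZ, Tk1 (2.96%), and 0 higher (3.01%). The interval lay inside 0.5 log2 units for 44 of 49 genes (55.8% of all genes), and for 48 without control 3 (71.6%). A p over the threshold does not show that the compounds act alike. These intervals give, gene by gene, the sizes that the spread between these libraries still allows.

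**Figure D4:**
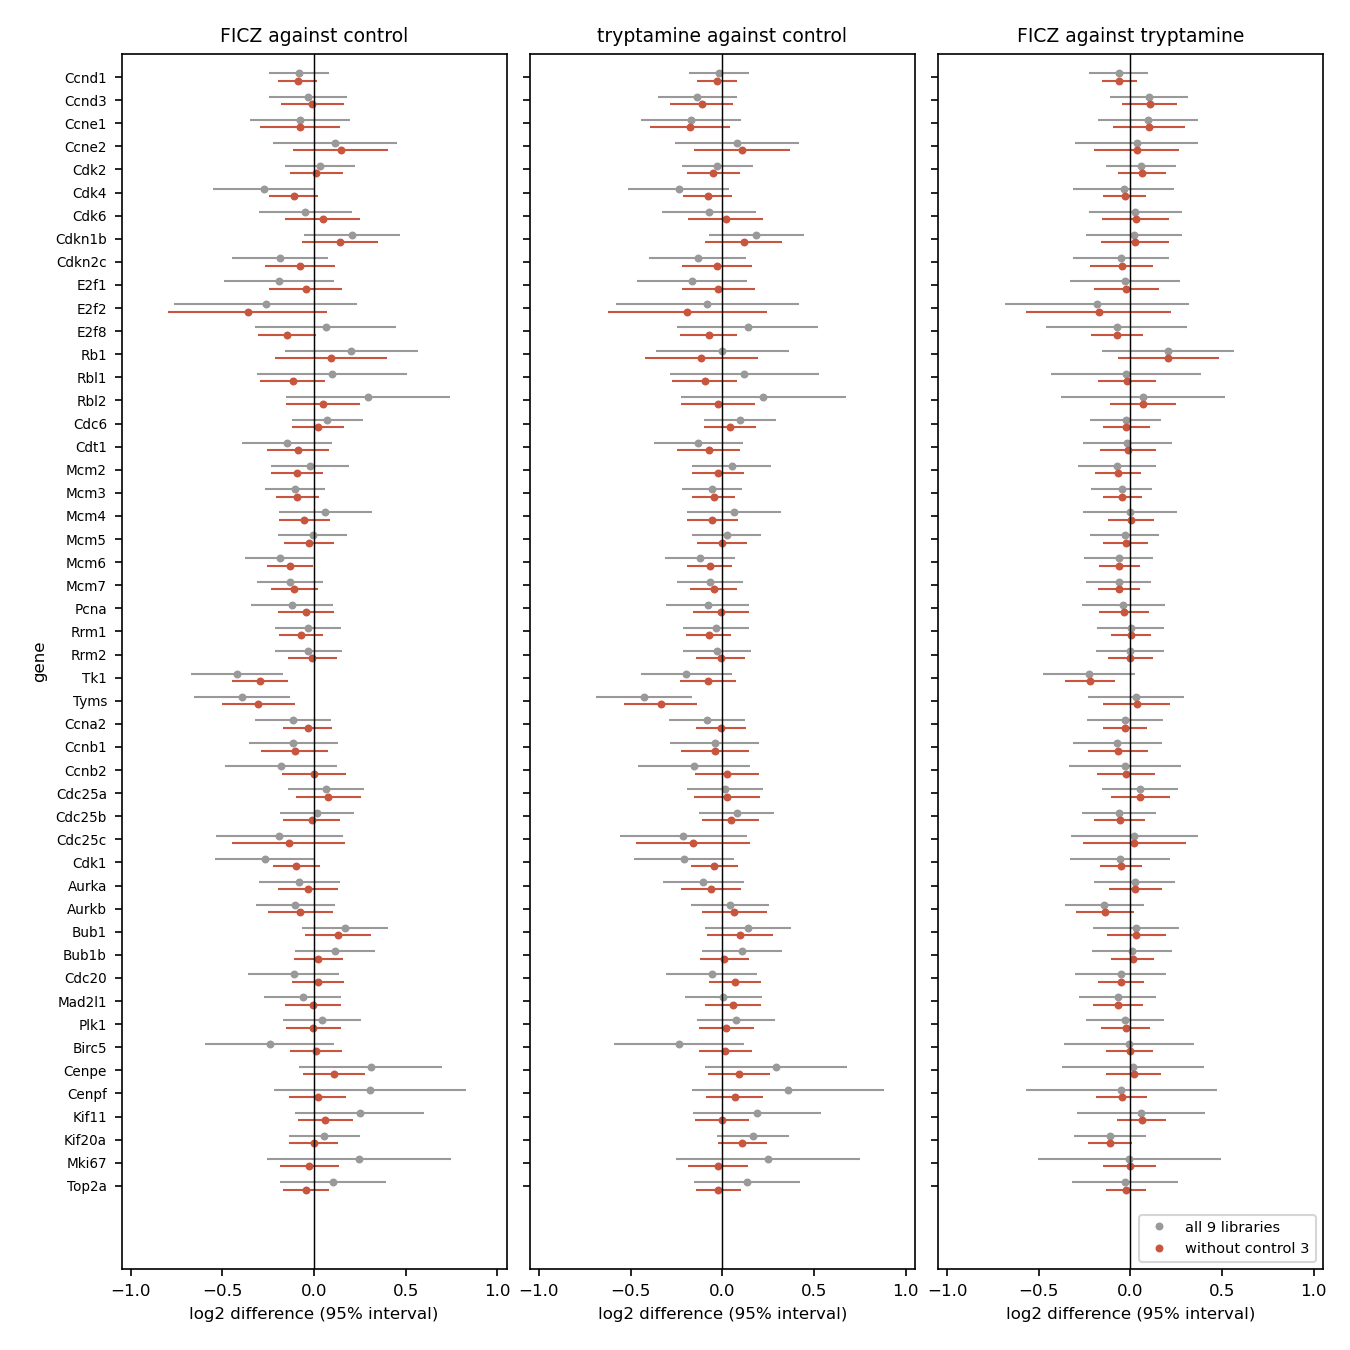
Log2 differences (points) with 95% intervals (lines) for 49 cell cycle genes in the 3 comparisons, from edgeR, with all 9 libraries in grey and without control 3 in red. Red intervals are narrower for most genes, the Tk1 and Tyms intervals lie below 0 with FICZ, and the interval of Tyms does with tryptamine.

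All 4 genes of nucleotide supply lay below 0 with FICZ (median log2 -0.21) and with tryptamine (-0.11), with 0 passing the adjusted test; without control 3 the medians were -0.18 and -0.07. Tk1, the cytosolic thymidine kinase of the salvage pathway, was at 145, 136 and 178 CPM in control, at 117, 119.9 and 106 CPM with FICZ, and at 131, 135 and 135 CPM with tryptamine. The 3 FICZ libraries lie below all 6 others, and control 3 is the highest value. The log2 difference with FICZ was -0.42 ± 0.11 (SE; 95% interval -0.67 to -0.17, edgeR adjusted p = 0.546), and -0.30 ± 0.07 without control 3 (adjusted p = 0.056). With tryptamine it was -0.20 ± 0.11 (adjusted p = 0.741), or -0.08 without control 3, and FICZ minus tryptamine was -0.23 ± 0.11 (95% interval -0.48 to 0.02), or -0.22 ± 0.07 without control 3 (adjusted p = 0.412).

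Tyms, thymidylate synthase, makes dTMP from dUMP. It was at 64.6, 62.6 and 76.0 CPM in control, at 50.0, 51.0 and 53.6 CPM with FICZ, and at 48.0, 46.3 and 56.9 CPM with tryptamine. Every treated library lay below every control. The log2 difference was -0.39 ± 0.12 with FICZ (95% interval -0.66 to -0.13, edgeR adjusted p = 0.591) and -0.43 ± 0.12 with tryptamine (95% interval -0.69 to -0.16, adjusted p = 0.741), or -0.30 and -0.34 without control 3. The row with most counts is a noncoding RefSeq transcript of the gene; on the coding one the group means were 66.6, 51.1 and 49.6 CPM. Rrm1 and Rrm2, the subunits of ribonucleotide reductase, were nearly level: Rrm1 averaged 542 ± 26.5 CPM in control, 530.5 ± 8.84 CPM with FICZ and 530.1 ± 29.9 CPM with tryptamine, and Rrm2 230.4 ± 5.82, 225.5 ± 12.1 and 226 ± 5.99 CPM (SD, n = 3).

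Tk1 and Tyms passed only in fits that were added after the data had been seen and that left out control 3. There, Tk1 was lower with FICZ by DESeq2 (adjusted p = 0.0175, with 1.07% of all genes called), by limma voom with sample weights (adjusted p = 0.0348, 1.3% called) and by edgeR with a term for replicate number (adjusted p = 0.0323, 1.64% called). Tyms was lower in the last of these with FICZ (adjusted p = 0.0314) and with tryptamine (adjusted p = 0.0401, 0.359% called). In the 18 alternatives without such a combination, which include each fit without 1 library, 0 of the 49 genes passed in any comparison.

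**Figure D5:**
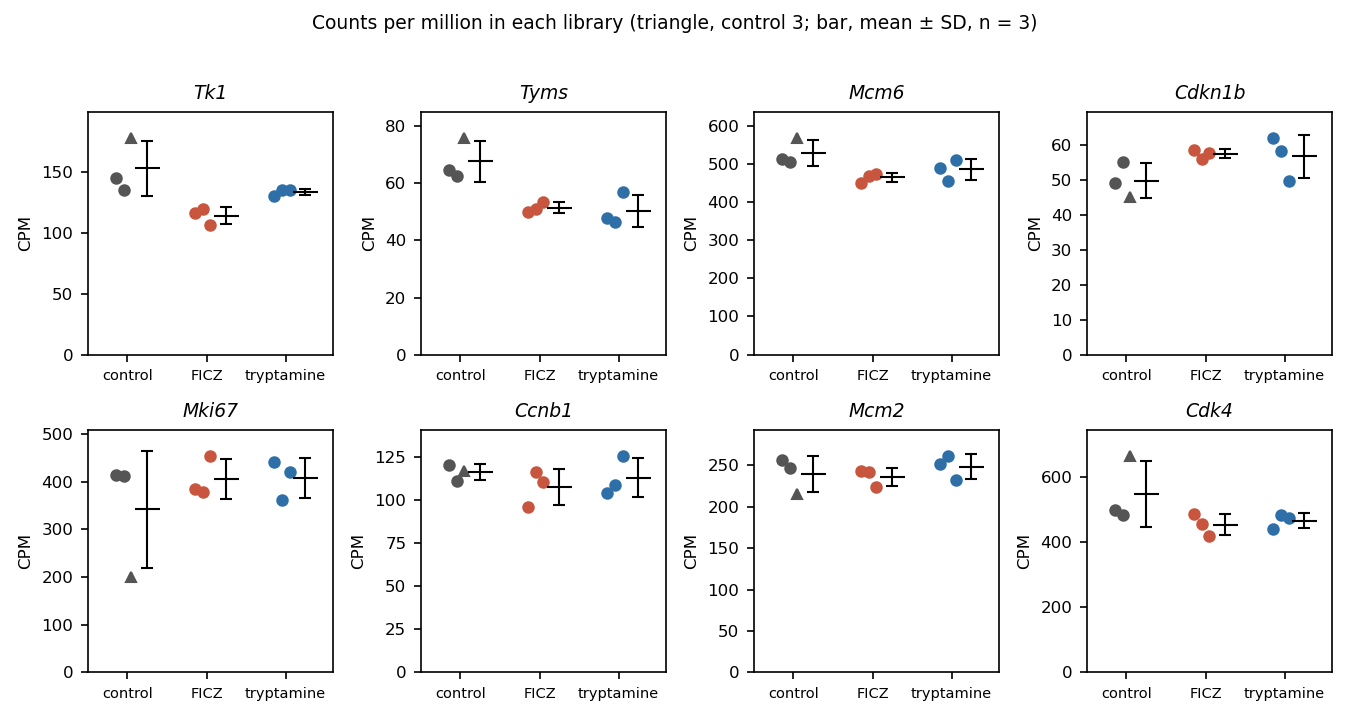
CPM of 8 cell cycle genes in each library (vertical axes from 0), by group, with the mean and SD of the 3 libraries beside the points; the triangle is control 3. The 3 FICZ points of Tk1 lie below its other 6 points, the treated points of Tyms lie below its controls, and control 3 is the outlying point for Mki67 and Cdk4.

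Among genes of origin licensing and the fork, 7 of 9 lay below 0 with FICZ (median -0.10, or -0.09 without control 3) and 5 of 9 with tryptamine (median -0.05 either way), none passing. Mcm6, a helicase subunit, was at 513, 504 and 568 CPM in control, 451, 468 and 474 CPM with FICZ, and 490.2, 455 and 511 CPM with tryptamine. Its FICZ libraries lay below the controls, while those of tryptamine overlapped both groups. The log2 difference with FICZ was -0.19 ± 0.09 (SE; edgeR adjusted p = 0.601) and -0.13 ± 0.06 without control 3 (adjusted p = 0.469). Mcm3 was at 475, 472 and 483 CPM in control, 448, 440.3 and 445 CPM with FICZ, and 473, 456 and 448 CPM with tryptamine. Its FICZ libraries lay below all the others, but narrowly, with FICZ 1 at 447.5 CPM and tryptamine 3 at 448.2 CPM. The log2 difference of Mcm3 with FICZ from control was -0.10 ± 0.07 (SE, edgeR adjusted p = 0.614), or -0.09 ± 0.06 without control 3. Cdc6 and Cdt1, which load the helicase on origins, averaged 139.9 and 177 CPM in control, 147 and 159.8 CPM with FICZ, and 149.7 and 162 CPM with tryptamine. Pcna, the sliding clamp, ran from 182 to 220.3 CPM in control, 172 to 193 CPM with FICZ and 174 to 198 CPM with tryptamine.

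G1 regulators had 0 of 9 genes passing in each comparison, with medians of -0.05 with FICZ and -0.07 with tryptamine, or -0.01 and -0.03 without control 3. Ccnd1 was at 1576, 1707 and 1617 CPM in control, at 1583, 1487 and 1556 CPM with FICZ, and at 1614, 1667 and 1558 CPM with tryptamine; its 95% interval with FICZ was -0.25 to 0.08, or -0.20 to 0.02 without control 3. Ccnd3 was at 102, 92.2 and 103 CPM in control, 99.96, 99.9 and 90.02 CPM with FICZ, and 90.1, 94.2 and 86.3 CPM with tryptamine. In both genes the groups overlapped. Cdk4 was at 499, 484 and 667 CPM in control, at 487, 457 and 420.4 CPM with FICZ and at 439.7, 483 and 476 CPM with tryptamine. Its high value is control 3, and its log2 difference with FICZ went from -0.27 ± 0.13 (SE; edgeR adjusted p = 0.601) to -0.11 ± 0.06 without that library (adjusted p = 0.609). Cdkn1b (p27), the Cdk inhibitor tied to AhR in earlier work on hepatoma cells, was at 49.1, 55.1 and 45.0 CPM in control, 58.6, 56.0 and 57.6 CPM with FICZ, and 62.0, 58.2 and 49.8 CPM with tryptamine. Its FICZ libraries lay above the controls, with a log2 difference of 0.21 ± 0.12 (SE; 95% interval -0.05 to 0.47, edgeR adjusted p = 0.605), and 0.14 ± 0.10 without control 3 (adjusted p = 0.704).

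For pocket proteins and E2F factors the median log2 level in control 3 was -0.52 against the mean of the other 8 libraries. With FICZ the median log2 difference was 0.08 with all libraries and -0.08 without control 3, and with tryptamine 0.06 and -0.09. Rb1, the retinoblastoma protein, was at 19.6, 15.3 and 13.5 CPM in control, 17.1, 18.2 and 20.6 CPM with FICZ, and 15.6, 14.7 and 18.1 CPM with tryptamine. E2f2 was at 9.94, 9.97 and 7.85 CPM in control, 7.76, 9.82 and 5.54 CPM with FICZ, and 8.09, 10.5 and 7.74 CPM with tryptamine. With all 9 libraries the groups overlapped for both. Without control 3 the FICZ libraries of E2f2 lay below both controls (14.1% of all genes did). Its log2 difference was then -0.36 ± 0.21 (SE, edgeR adjusted p = 0.608). Rbl2 (p130) is the one gene of the set in the lists of raised genes that the authors deposited, which hold 81 genes for FICZ and 22 for tryptamine. It enters through 1 of its 10 transcript rows, at log2 1.47 with FICZ and 1.65 with tryptamine in the authors' deposited table. That row had 31, 21 and 0 counts in controls 1 to 3, 29, 67 and 55 with FICZ and 51, 48 and 62 with tryptamine. Against controls 1 and 2 alone, the log2 ratio of its mean CPM was 0.88 with FICZ and 1.07 with tryptamine. The main Rbl2 row was at 48.9, 45.5 and 24.995 CPM in control and 51.2, 46.3 and 49.1 CPM with FICZ.

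Of the cyclins, Cdk1 and Cdc25 phosphatases that act from S phase to mitosis, 0 of 7 passed in each comparison. Their medians were -0.12 with FICZ and -0.08 with tryptamine, or -0.04 and -0.01 without control 3. Cdk1, the kinase that starts mitosis, was at 292, 289 and 399 CPM in control, at 278, 268 and 268 CPM with FICZ, and at 274, 277 and 296 CPM with tryptamine. The log2 difference with FICZ was -0.27 ± 0.12 (SE; edgeR adjusted p = 0.601), and -0.10 ± 0.06 without control 3. For its partner Ccnb1 the difference was -0.11 with FICZ, with or without control 3, and the 95% interval was -0.36 to 0.13.

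Mitotic kinases and checkpoint genes had medians of -0.06 with FICZ and 0.04 with tryptamine, or -0.01 and 0.06 without control 3, with 0 of 7 passing. Aurkb, the kinase of the chromosomal passenger complex, was at 75.6, 79.7 and 82.2 CPM in control, 79.1, 73.3 and 68.8 CPM with FICZ, and 85.4, 78.8 and 80.1 CPM with tryptamine. FICZ minus tryptamine was -0.14 ± 0.10 (SE; edgeR adjusted p = 1), and -0.14 ± 0.08 without control 3. Plk1 and Aurka averaged 175 and 140.3 CPM in control, 181 and 133 CPM with FICZ, and 185 and 130.4 CPM with tryptamine.

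The median of the spindle, centromere and chromosome genes moved furthest of the 7 roles when control 3 was left out. Their median log2 difference was 0.24 with FICZ and 0.19 with tryptamine in all libraries, with 6 of 7 genes above 0, and 0.01 and 0.02 without control 3. Cenpe, a kinetochore motor with a 7813 nt transcript, was at 281, 282 and 172 CPM in control, 315, 268 and 328 CPM with FICZ, and 325, 263 and 313 CPM with tryptamine. Its log2 difference with FICZ was 0.31 ± 0.18 (SE; edgeR adjusted p = 0.605) and 0.11 ± 0.08 without control 3. For Mki67 the difference was 0.24 ± 0.23 (95% interval -0.26 to 0.74), and -0.03 ± 0.08 without control 3. Kif20a, a kinesin of cytokinesis, was at 214, 215 and 189 CPM in control, 214, 219 and 209.6 CPM with FICZ, and 226, 226 and 244 CPM with tryptamine. It lay higher in each tryptamine library than in each control and each FICZ library, at log2 0.17 ± 0.09 against control (edgeR adjusted p = 0.741) and 0.11 ± 0.06 without control 3.

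Counting genes whose libraries do not overlap between groups gave 6 of 49 lower with FICZ than in control (7.4% of all genes were), namely Cdk1, Mcm3, Mcm6, Mcm7, Tk1 and Tyms, and 1 higher, Cdkn1b (8.21%). Without control 3 these counts were 9 (14.1%) and 1 (13.9%), adding E2f2, Mcm2 and Rrm1. With tryptamine 3 were lower, Cdk4, Tk1 and Tyms (4.87%), and 1 higher, Kif20a (5.19%), the same 4 genes without control 3 (9.84% and 10.2%). The gap was narrow for Cdk4, at 482.7 CPM in tryptamine 2 and 483.5 CPM in control 2. So it was for Tk1, at 135.0 CPM in tryptamine 3 and 135.6 CPM in control 2. Between the treatments, 3 were lower with FICZ, Kif20a, Mcm3 and Tk1 (5.85%), and 0 higher (5.46%). In the authors' deposited table, with its own adjusted p under 0.05, 5 of the genes were lower with FICZ (5.46% of all genes were), namely Cdk1 at log2 -0.33, Cdk4 at -0.34, Tyms at -0.46, Tk1 at -0.49 and Birc5 at -0.32, and 0 higher (2.09%). For tryptamine the authors' deposited table had 1 lower, Tyms at -0.49 (1.94% of all genes), and 0 higher (0.291%), and for FICZ against tryptamine 0 in either direction (0.0323% and 0.145%). All 5 genes had their highest value in control 3. Birc5 (survivin) was at 148, 145 and 155 CPM with FICZ, level with controls 1 and 2, and its log2 difference in the edgeR fit was -0.24 with control 3 and 0.01 without it.

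A further 111 genes of the same pathways were looked at, of which 108 had enough counts. By edgeR, 0 of 108 passed in each of the 3 comparisons, with or without control 3. At an unadjusted p under 0.05, 4 were higher and 2 lower with FICZ (3.52% and 4.6% of all genes), and 6 and 4 without control 3 (5.12% and 4.85%). With tryptamine 1 was higher and 1 lower (2.18% and 2.97%), and 4 and 2 without control 3 (3.58% and 3.0%). Between the treatments 0 were higher with FICZ and 1 lower (0.703% and 1.03%), and 1 and 1 without control 3 (3.01% and 2.96%). Among replication genes, Orc6, of the origin recognition complex, was at 97.4, 98.4 and 145 CPM in control, 82.3, 80.9 and 82.4 CPM with FICZ, and 89.8, 74.8 and 94.4 CPM with tryptamine. All treated libraries lay below the controls, with a log2 difference with FICZ of -0.47 ± 0.16 (SE; adjusted p = 0.601) and -0.26 ± 0.09 without control 3 (adjusted p = 0.262). Pold1, the catalytic subunit of DNA polymerase delta, was lower with FICZ than with tryptamine by log2 -0.29 ± 0.11 (edgeR adjusted p = 1), or -0.28 ± 0.08 without control 3 (adjusted p = 0.326), and passed in 1 fit, the one without control 3 and with a term for replicate number (adjusted p = 0.0184, 0.295% of all genes called). Among mitosis genes, Spc24 had a log2 difference of -0.43 with FICZ and Hmmr of 0.32 (edgeR adjusted p = 0.601 for both). Without control 3 these were -0.28 and 0.18 (adjusted p = 0.562 and 0.464).

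Cdkn1a (p21), a Cdk inhibitor induced by p53, was at 164, 159.9 and 182 CPM in control, 207, 197 and 191 CPM with FICZ, and 169, 202 and 172 CPM with tryptamine. Every FICZ library lay above every control. The log2 difference was 0.24 ± 0.10 (SE; edgeR adjusted p = 0.601), and 0.30 ± 0.08 without control 3 (adjusted p = 0.0698). It passed in the same 3 added fits as Tk1, in the opposite direction (adjusted p = 0.0313 by DESeq2, 0.0251 by limma voom and 0.00555 with a term for replicate number). E2f7, a repressing E2F, was at 28.7, 29.4 and 17.3 CPM in control, 32.7, 33.9 and 31.7 CPM with FICZ, and 33.3, 37.7 and 35.5 CPM with tryptamine. Its log2 difference was 0.38 ± 0.18 with FICZ (SE, edgeR adjusted p = 0.601). With tryptamine it was 0.49 ± 0.18 (edgeR adjusted p = 0.741), or 0.28 without control 3.

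In bulk RNA, fewer cells in a phase of the cycle and less RNA per cell cannot be told apart. No source used here gives whether reads were counted by strand, and 14 of the 50 genes overlap another protein-coding gene in the RefSeq annotation of GRCm38.p6, among them Tk1 with Afmid, Cdk4 with Tspan31 and Kif20a with Cdc23 and Brd8.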

How the data were processed

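The authors deposited, per the file headers, transcript tables with read counts for each library and, for each comparison, a log2 fold change, a p-value and an adjusted p-value; DESeq is named in the submitters' processing notes. Aligner, annotation and strand setting were not given in the sources used here. From 189660 transcript rows, the row with the highest mean count stood for each of 28932 genes, since summing rows counts a read several times. Rows that name no gene, left out, had 3.56% to 4.23% of a library's counts. Counts were tested with edgeR 4.0.16 in R 4.3.3 (quasi-likelihood test, TMM scaling, filterByExpr, group as the only term, all 9 libraries), with Benjamini-Hochberg adjustment over 12372 genes. DESeq2 1.42.0 and limma 3.58.1 were alternatives. The code was tested on simulated data. In deviations from their group means, same-numbered libraries of different groups correlated at -0.06 to 0.12, and differently numbered ones at -0.12 to 0.10. Control 3 was part of this check, which does not settle whether replicate numbers pair the libraries.

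The genes, lists and roles were chosen with earlier results of these data known. Values in every library are given for Mki67, Ccnb1 and Mcm2, for the 6 genes with the smallest unadjusted p in each comparison and for those with the highest and lowest level per length. Outside the set, up to 3 genes per pathway list with the smallest p were eligible. Cdkn1b, Mcm3, Birc5, Cenpf and Rbl2 were named after their values were seen, as were the averages of other genes.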

Additional observations from a re-analysis of the deposited data

How the results depend on the processing

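In the 18 other settings tried first (other scaling, tests, filters, libraries, transcript sums, length offset) 0 of 49 cell cycle genes and 0 of 108 other pathway genes passed in any comparison. With FICZ, the number of all genes passing, 14 in the fit to all libraries, was 54 by DESeq2, 114 by limma voom with sample weights, 26 with no filter on low counts, 2 with only the 6 libraries compared, 4 with transcripts summed and 52 with a length offset; with tryptamine, 1 in the fit to all libraries, it was 12, 19 and 2 by the first 3 of these, 2 with transcripts summed and 6 with the length offset; for FICZ against tryptamine, 0 in the fit to all libraries, it was 10 by DESeq2, 18 by limma voom, 17 with the 6 libraries and 5 with the length offset. Leaving out each library in turn gave 4 to 101, 1 to 25 and 0 to 17 genes, the highest each time without control replicate 3, and medians of the cell cycle genes of -0.049 to -0.012, -0.037 to 0.0034 and -0.034 to -0.019. A term for the replicate number as a block gave 4 genes with FICZ and 0 cell cycle genes.

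Fits added after seeing the data, all without control replicate 3, gave with FICZ 163 genes by limma voom, 134 by DESeq2, 206 with the replicate block and 54 with transcripts summed, of which 1, 1, 2 and 0 were cell cycle genes and 1, 1, 1 and 0 other pathway genes. The same fits gave 28, 38, 45 and 6 genes with tryptamine (1 cell cycle gene, with the block) and 27, 30, 37 and 10 between the treatments (1 other pathway gene, with the block). Of 594 values of the genes tested singly under an alternative, 560 kept their sign, 5 passed, and 0 of the 34 that changed sign passed. Common dispersion, as its square root, came to 0.156 with all 9 libraries and to 0.0748 without control 3; with 3 libraries a group this spread limits which differences can be called.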
